A study of Drosophila simulans x Drosophila sechellia and Drosophila simulans x Drosophila mauritiana and Drosophila mauritiana x Drosophila simulans with 63 samples.

Results

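The genes described here are those whose *D. melanogaster* ortholog lies on the fourth chromosome, the smallest autosome of the fly. The deposited tables assign each gene a *D. melanogaster* chromosome, and every gene assigned to the fourth was taken, apart from the ribosomal gene RpS3A, which the rule on symbols left out in each table. This gave 58 genes in the table of *D. simulans* and *D. mauritiana*, 55 in that of *D. simulans* and *D. sechellia* and 54 in that of *D. sechellia* and *D. mauritiana*. In all, 59 dot chromosome genes appeared in any table and 54 in all 3, out of 11315 genes in the series. They were set against the genes of the other autosomes, the arms 2L, 2R, 3L and 3R, of which 9231, 8999 and 8890 were listed in the same tables.

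The fourth chromosome, or dot chromosome, is rich in repeats and carries the marks of heterochromatin along much of its length, yet its genes are transcribed. It has its own binding protein, Pof, and it is also bound by heterochromatin protein 1 and by the histone methyltransferase Eggless, which have been found in *D. melanogaster* to act on the output of its genes. Crossing over is nearly absent from it, so its genes are inherited almost as a block. Its genes are called dot chromosome genes below. Among its genes are regulators of patterning, such as cubitus interruptus, and genes with products that mothers load into the egg.

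RNA was sequenced from 63 single embryos at a maternal and a zygotic stage. At stage 2 the embryo holds only transcripts laid down by the mother. At late stage 5, the end of the blastoderm stage, the zygotic genome is active but part of the maternal RNA remains. The study asked which differences between the 3 sister species lie at the gene itself (in cis) and which in factors that act on it (in trans), by setting parental species beside the 2 alleles of hybrids.

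The hybrid embryos of stage 5 came from 5 crosses, named with the mother first: sim x mau, mau x sim, sim x sec, sec x mau and mau x sec, with 6 embryos each. The embryos of sim x mau were 4 XX and 2 XY, and each of the other crosses gave 3 XX and 3 XY embryos. The hybrid embryos of stage 2 came from F1 hybrid mothers mated to males of the species of their own mother, written (sim x mau) x sim, (mau x sim) x mau, (sim x sec) x sim, (sec x mau) x sec and (mau x sec) x mau, with 3 embryos each. Their transcripts were made by a hybrid maternal genome. The parental embryos, of *D. simulans* (sim), *D. sechellia* (sec) and *D. mauritiana* (mau), numbered 3 at stage 5 and 3 at stage 2 in each species, and their sex was not given. Mothers were 4 to 14 days old and kept at 25 degrees, and each species stood for a single laboratory line. Per the study's methods the parental reads came from an earlier data set, so that in level the hybrids and the parental embryos cannot be told apart from the 2 collections, and no test of level was made between them.

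Each value is the number of reads assigned to 1 allele over the sites of a gene that differ between the species, scaled to the upper quantile by the authors. A gene with more such sites gathers more reads, so values of single genes were compared between embryos and alleles and not with other genes. Sums over a set of genes depend on these sites too, so a share of summed value cannot be set against a share of genes. Dot chromosome genes had a median of 10 variant sites in the table of sim and mau, against 7 for genes of the other autosomes. Reads per embryo ran from 2146524 to 7044646, of which 12474 to 44278 fell on dot chromosome genes. A group mean of at least 5 in any group was reached by 51 of the 58 genes for sim and mau, 44 of 55 for sim and sec and 46 of 54 for sec and mau. Those that stayed below in at least 1 table included dpr7, the glutamate receptor gene mGluR, the titin-like gene bt, the kinesin gene Kif3C, ey, NfI and Actbeta.

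The position in the living species bears on what the label means. In mau all 58 listed genes lay on scaffold 4 of the MS17 assembly. In sim 54 lay on chromosome 4, while CaMKI, Hcf, lgs and PMCA were on the unplaced scaffold ICT25, and JYalpha lay on 3R at 88014 to 88198. In sec the genes were spread over scaffold_30 with 27 genes, scaffold_40 with 18, scaffold_52 with 9 and scaffold_6 with JYalpha alone. JYalpha, a sodium-potassium pump subunit gene, was listed for sim and sec only, had 1 variant site and did not reach the minimum, so it entered no test. All genes that were tested therefore lay outside the named 2L, 2R, 3L and 3R arms of sim. For orientation, the listed exon of ci stood at 31413 to 31894 on chromosome 4 of sim, that of gw at 490695 to 490864 and that of Mitf at 981685 to 982222.

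Markers of the stages moved as the labels say. All 6 maternal genes tested, among them bcd and gnu, were lower at stage 5 in sim and in sec, and 5 of 6 were lower in mau, with nos short of the threshold. All 7 early zygotic genes tested, such as eve and ftz, were higher at stage 5 in each species. The 2 pole cell genes tested were lower at stage 5 in each species. No replicate embryos of a group had identical values.

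The first question was how much of the autosomal output the fourth chromosome genes held in each species and stage. In the table of sim and mau they were 0.935% of the autosomal genes that reached the minimum. They held 0.666% ± 0.0759 of the summed autosomal value in sim at stage 5 and 0.683% ± 0.0359 at stage 2, against 0.993% ± 0.0705 in mau at stage 5 and 0.943% ± 0.188 at stage 2 (SD, n = 3 each). At both stages the 3 sim embryos lay below the 3 mau embryos. Sec, read from the table with mau, held 0.934% ± 0.169 at stage 5 and 0.790% ± 0.0971 at stage 2. In that table these genes were 0.899% of the autosomal genes that reached the minimum. The share of mau was not read from it, so sec is not ranked against sim and mau here. The stages of a species overlapped in all 3 species.

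**Figure D1:**
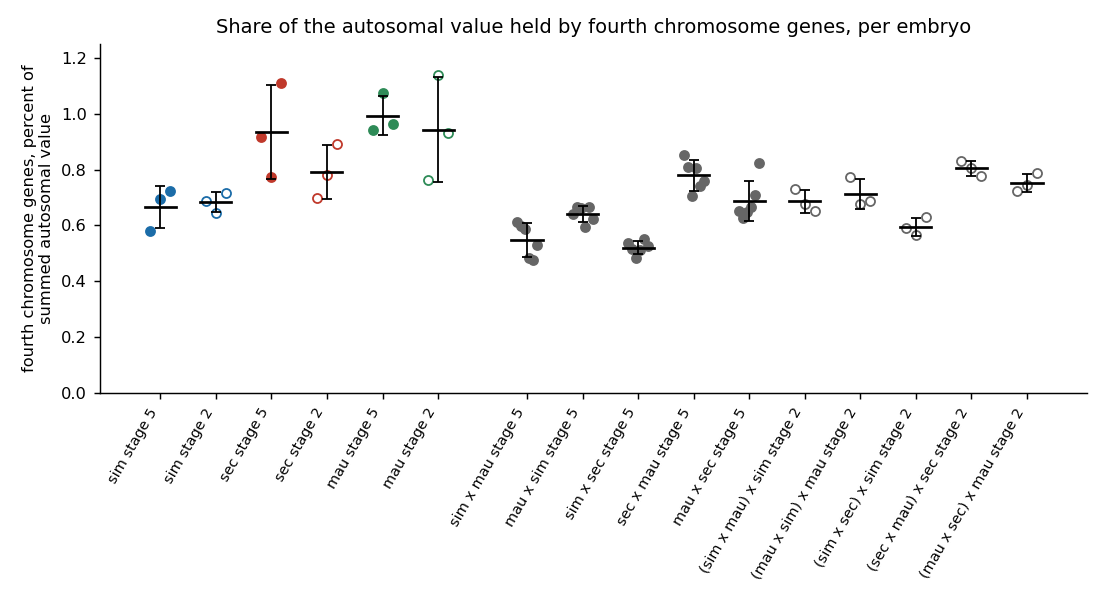
Percent of the summed value of autosomal genes held by dot chromosome genes (vertical axis, from 0), one point per embryo, stage 5 filled and stage 2 open. Horizontal lines are group means and error bars SD; parental groups stand on the left in color and hybrid groups on the right in gray. The sim embryos lie between 0.580% and 0.724%, below the mau embryos at 0.762% to 1.14%.

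Among hybrids at stage 5 the share was 0.547% ± 0.0597 in sim x mau, 0.641% ± 0.0287 in mau x sim, 0.520% ± 0.0237 in sim x sec, 0.779% ± 0.0539 in sec x mau and 0.687% ± 0.0727 in mau x sec (SD, n = 6 each). At stage 2 it was 0.685% ± 0.0405 in (sim x mau) x sim, 0.713% ± 0.0530 in (mau x sim) x mau, 0.595% ± 0.0320 in (sim x sec) x sim, 0.805% ± 0.0273 in (sec x mau) x sec and 0.751% ± 0.0325 in (mau x sec) x mau (SD, n = 3 each). Shares can be set side by side only within a table, because each pair of species has its own variant sites. They also depended on the genome used for mapping: with reads mapped to mau rather than sim, the shares were 0.801% and 0.867% in sim at stages 5 and 2, and 1.17% and 1.16% in mau at stages 5 and 2. The order of sim below mau was the same in both mappings.

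Single embryos strayed from their group in these genes together. The median deviation of a parental embryo from its group mean, over dot chromosome genes with a mean of at least 20, ran from -0.39 to 0.36 on the log2 scale. On 2L, 2R, 3L and 3R it stayed between -0.06 and 0.09, while on the X it ran from -0.21 to 0.25. In sim at stage 5 the X deviated by -0.21, 0.10 and 0.11 in replicates 1 to 3, beside -0.22, 0.09 and 0.12 for the dot chromosome genes. In the embryos singled out next the X deviated by 0.04, -0.01 and -0.08. At stage 2, replicate 1 of mau lay below its group mean in 34 of 35 genes, and replicate 2 lay above it in 33 of 35. At stage 5, replicate 3 of sec lay above its group mean in 35 of 36 genes. What leaving such an embryo out does to a comparison is given beside it.

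The second question was what changed between the maternal and the zygotic stage. In sim, 24 of 44 dot chromosome genes tested were higher at stage 5 and 11 were lower, against 53% higher and 33.4% lower among genes of the other autosomes. In sec, 27 of 39 were higher and 5 lower, against 50.5% and 31.7%. In mau, 34 of 51 were higher and 8 lower, against 53.8% and 32.2%. The median log2 difference of the fourth chromosome genes was 0.85 in sim, 1.39 in sec and 1.46 in mau, against 0.53, 0.52 and 0.60 over genes of the other autosomes. Calls were made with limma on log2(value + 1) with Benjamini-Hochberg adjustment over all genes tested and a threshold of 0.05. The values are relative amounts within an embryo: fewer cells that make a transcript and less RNA per cell cannot be told apart in whole embryos. Scaling by TMM on the recovered reads in edgeR lowered the median of the other autosomes to 0.23 in sim, 0.18 in sec and 0.26 in mau, and that of the fourth chromosome genes to 0.57, 1.02 and 1.08.

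Of 39 dot chromosome genes tested in all 3 species, 20 were higher at stage 5 in each and 5 were lower in each. The 5 were Mitf, Arl4, MED26, lgs and CG32850. The overlap of species was not counted on the other autosomes, so whether these counts are unusual cannot be told. CaMKI, Syt7 and Ank were called in opposite directions in different species. For CaMKI, a calcium and calmodulin dependent kinase gene, the sec embryos had 253, 150 and 265 at stage 5, against 21.1, 366 and 11.1 at stage 2. The stages overlapped there, and the difference of 2.23 (adjusted p = 0.0262) was lost when replicate 1 or 3 of either stage was left out, with 1.27 to 2.12. Neither edgeR (0.37, adjusted p = 0.661) nor DESeq2 (0.54, adjusted p = 0.624) called it.

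**Figure D2:**
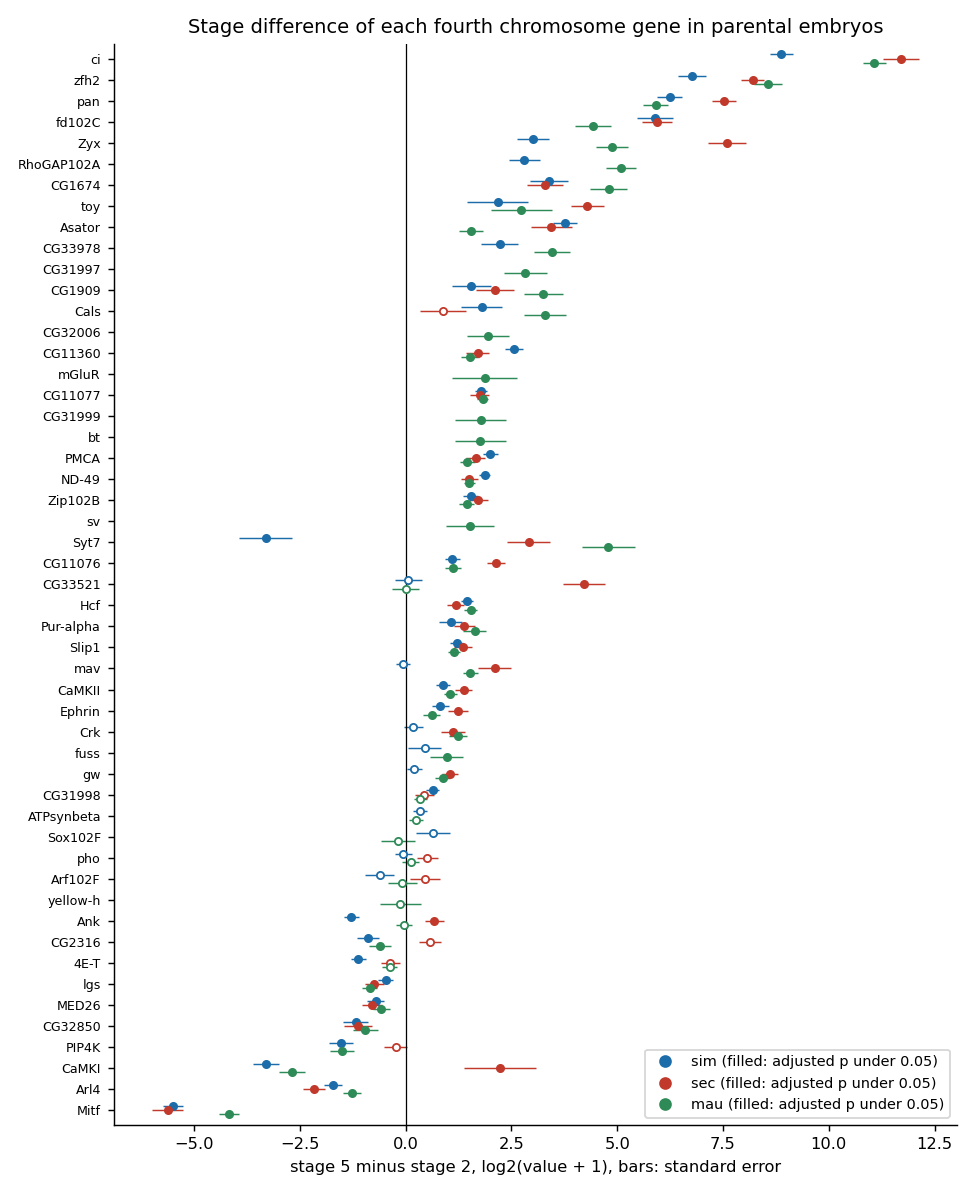
Difference between stage 5 and stage 2 in log2(value + 1) (horizontal axis) for each dot chromosome gene tested, with bars of 1 standard error. Blue is sim, red sec and green mau; filled points passed an adjusted p of 0.05. The plot runs from ci, at 8.87 to 11.7, down to Mitf, at -5.63 to -4.18.

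The gene ci, the transcription factor through which Hedgehog signals are read, had the largest mean stage difference of the genes plotted, with values of 5091, 5474 and 5195 in the 3 sim embryos at stage 5, against 10.7, 8.38 and 11.7 at stage 2. In mau it had 6844, 6283 and 5397 at stage 5, against 0.782, 3.83 and 1.68 at stage 2. The stages were far apart in every embryo, and the log2 difference was 8.87 in sim (SE 0.27, adjusted p = 1.17e-12), 11.71 in sec (SE 0.42, adjusted p = 9.3e-12) and 11.08 in mau (SE 0.27, adjusted p = 3.04e-13). The low but measurable amount at stage 2 differed between species: ci was higher in sim than in mau by 1.97 (adjusted p = 9.94e-05) and higher in sim than in sec by 2.27 (adjusted p = 8.97e-07).

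The gene pan, the TCF factor at the end of the Wingless pathway, had 1310, 1654 and 1634 in sim at stage 5, against 30.4, 12.3 and 18.6 at stage 2. Its log2 difference was 6.24 in sim, 7.52 in sec and 5.91 in mau. At stage 2 pan was lower in sec than in mau by a log2 difference of -2.80 (adjusted p = 6.99e-06), with 2.51, 1.82 and 3.41 in sec embryos against 22.1, 18.2 and 32.1 in mau embryos. The gene lgs, whose product Legless acts with beta-catenin in the Wingless pathway, went the other way: it was lower at stage 5 by -0.47 in sim, -0.75 in sec and -0.85 in mau. The sim call was lost with reads mapped to mau (-0.38, adjusted p = 0.0693).

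Other transcription factor genes had few or no reads in the egg. For zfh2, a zinc finger homeodomain factor, no reads were assigned in any sec embryo at stage 2 in the table with mau when reads were mapped to sec, and the mean at stage 5 was at least 451-fold higher than 3 reads over the group would give. Mapped to mau, 1 of the 3 sec embryos had 1 read. In mau zfh2 had 488, 545 and 373 at stage 5, against 0, 0 and 0.840 at stage 2. The forkhead factor gene fd102C rose by 5.89 in sim, 5.94 in sec and 4.42 in mau. At stage 2 it was lower in sim than in mau by -2.53 (adjusted p = 0.000559), with 0, 1.12 and 1.96 in sim embryos against 7.04, 18.4 and 6.72 in mau embryos. The Pax6 gene toy rose in all 3 species, by 2.17, 4.29 and 2.73 in sim, sec and mau on low values. In the table with mau it had 0 reads in each sim embryo at stage 2 when mapped to sim, but 3, 1 and 0 when mapped to mau. The other Pax6 gene, ey, passed the filter in the table of sim and sec only. The Pax2 gene sv was tested in mau only, where its difference of 1.52 passed in limma but not in edgeR (adjusted p = 0.163) or DESeq2 (adjusted p = 0.319).

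Not all regulators rose. Mitf, a transcription factor known for lysosomal genes, had 12.6, 9.32 and 9.93 in sim embryos at stage 5, against 515, 477 and 570 at stage 2. In mau it had 22.8, 36.7 and 33.9 at stage 5, against 430, 714 and 597 at stage 2. This was the deepest loss among the genes tested, with a log2 difference of -5.49 in sim (adjusted p = 3.16e-11), -5.63 in sec (adjusted p = 4.45e-09) and -4.18 in mau (adjusted p = 7.07e-10). MED26, a Mediator subunit, was lower by -0.70, -0.80 and -0.58 in sim, sec and mau. The Polycomb group gene pho, whose product binds DNA at Polycomb response elements, had log2 differences of -0.06, 0.52 and 0.11 in sim, sec and mau, none past the threshold. Hcf, a chromatin cofactor, rose by 1.45, 1.18 and 1.54, and Pur-alpha, which binds single-stranded nucleic acid, by 1.07, 1.39 and 1.63. The Ski family gene fuss had a difference of 0.97 in mau that passed in limma but not in edgeR (adjusted p = 0.106) or DESeq2 (adjusted p = 0.0765), and had a difference of 0.45 in sim that did not pass. Sox102F had 0.64 in sim and -0.19 in mau, and neither passed.

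Genes for kinases, GTPases and adaptors were split. Arl4, an Arf-like GTPase gene, had 117, 167 and 193 in sim at stage 5, against 480, 477 and 600 at stage 2, and its log2 difference was -1.72 in sim, -2.17 in sec and -1.27 in mau. PIP4K, a phosphoinositide kinase gene, was lower by -1.53 in sim and -1.5 in mau, with -0.24 in sec that did not pass. Asator, which encodes a tau tubulin kinase family member, rose by 3.77, 3.45 and 1.54 in sim, sec and mau. Slip1, whose product was named for binding the Slowpoke channel, rose by 1.21, 1.35 and 1.14. Zyx, the zyxin gene of cell adhesions, rose by 3.01 in sim, 7.59 in sec and 4.88 in mau. At stage 2 Zyx had 1.00, 0 and 1.7 in sec embryos against 9.74, 33.6 and 31.1 in mau embryos, a log2 difference of -3.70 (adjusted p = 4.07e-05).

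The ligand gene mav, of the TGF-beta family, did not share 1 stage pattern. In sim it had 685, 874 and 953 at stage 5, against 776, 864 and 968 at stage 2, and the stages overlapped. In mau it had 1032, 1265 and 1171 at stage 5, against 298, 458 and 468 at stage 2, a log2 difference of 1.52 (adjusted p = 1.5e-06). In sec the difference was 2.11 (adjusted p = 0.000172). Ephrin, the ligand of the Eph receptor, rose by 0.82 in sim and 1.24 in sec. Its difference of 0.62 in mau passed in limma but not in edgeR (0.23, adjusted p = 0.238) or DESeq2 (0.38, adjusted p = 0.065).

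Stage differences of genes of RNA silencing and translation were set side by side. For gw, whose product GW182 is needed for silencing by microRNAs, the stage difference was 0.20 in sim and did not pass (adjusted p = 0.296), while it was 1.05 in sec and 0.88 in mau (adjusted p = 0.000126 and 0.000328). For 4E-T, a translational repressor that binds the cap-binding protein eIF4E, it was -1.12 in sim (adjusted p = 3.6e-05), with -0.36 in sec and -0.37 in mau that did not pass. In the test of the difference between species, described below, gw passed for sim against sec (-0.80, adjusted p = 0.0173) and not for sim against mau (-0.68, adjusted p = 0.0581), and 4E-T passed for sim against mau (-0.75, adjusted p = 0.0414) and not for sim against sec (-0.71, adjusted p = 0.0597). The metabolic gene ND-49, of respiratory complex I, rose by 1.87, 1.5 and 1.5 in sim, sec and mau. ATPsynbeta, the beta subunit of ATP synthase, had 0.35 in sim and 0.24 in mau, neither past the threshold.

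Whether the stage difference itself differed between 2 species was tested in the same fits, as an interaction added after the data had been seen. Of 51 genes tested for sim and mau, 14 passed, 2 with the larger value in sim and 12 with the larger value in mau, against 28.1% called either way on the other autosomes. Of 43 for sim and sec, 15 passed, 2 with the larger value in sim and 13 in sec, against 29.3%. Of 46 for sec and mau, 9 passed, 6 with the larger value in sec and 3 in mau, against 22%. The genes that passed for both comparisons with sim were Ank, ci, mav, Syt7, zfh2 and Zyx. For mav the interaction was -1.59 against mau (adjusted p = 0.000407) and -2.08 against sec (adjusted p = 0.0169), and both comparisons use the same sim embryos.

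The third question was how the species differed at each stage. Most dot chromosome genes had lower values in sim and in sec than in mau, whether past the threshold or not. At stage 2, 4 of 40 genes were higher in sim than in mau and 22 were lower, against 16.9% and 21.2% on the other autosomes. Between sec and mau at stage 2, 1 of 33 was higher in sec and 19 were lower, against 11.7% and 14.4%. Between sim and sec at stage 2, 7 of 35 were higher in sim and 8 were lower, against 11.6% and 13.6%. The median log2 differences were -0.63 for sim minus mau, -0.70 for sec minus mau and -0.11 for sim minus sec, against -0.05, -0.04 and 0.03 on the other autosomes.

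At stage 5, 1 of 51 genes was higher in sim than in mau and 34 were lower, against 24% and 32.1% on the other autosomes. Between sec and mau, 1 of 45 was higher in sec and 18 were lower, against 17.9% and 25.1%. Between sim and sec, 2 of 43 were higher in sim and 18 were lower, against 24.4% and 27.3%. The medians were -0.95 for sim minus mau, -0.55 for sec minus mau and -0.63 for sim minus sec, against -0.09, -0.08 and 0.03. Sim and sec were compared with the same mau embryos, so these counts are not independent. Of 44 genes tested in both at stage 5, 15 were lower than mau in sim and in sec. This overlap was not counted on the other autosomes.

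The spread among mau embryos bears on the counts at stage 2. Without replicate 2 of mau, the embryo that lay above its group in 33 of 35 genes, 16 genes were called between sim and mau instead of 26, and 12 between sec and mau instead of 20. The count between sec and mau was also 12 without replicate 3 of mau and 13 without replicate 1 of sec. At stage 5 that count was 12 instead of 19 without replicate 2 or 3 of mau, and likewise without replicate 1 or 2 of sec. Mapping reads to the other genome of the pair left the median of sim minus mau at -0.62 at stage 2 and -0.84 at stage 5, and brought the calls between sim and sec to 9 instead of 15 at stage 2 and 10 instead of 20 at stage 5.

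**Figure D3:**
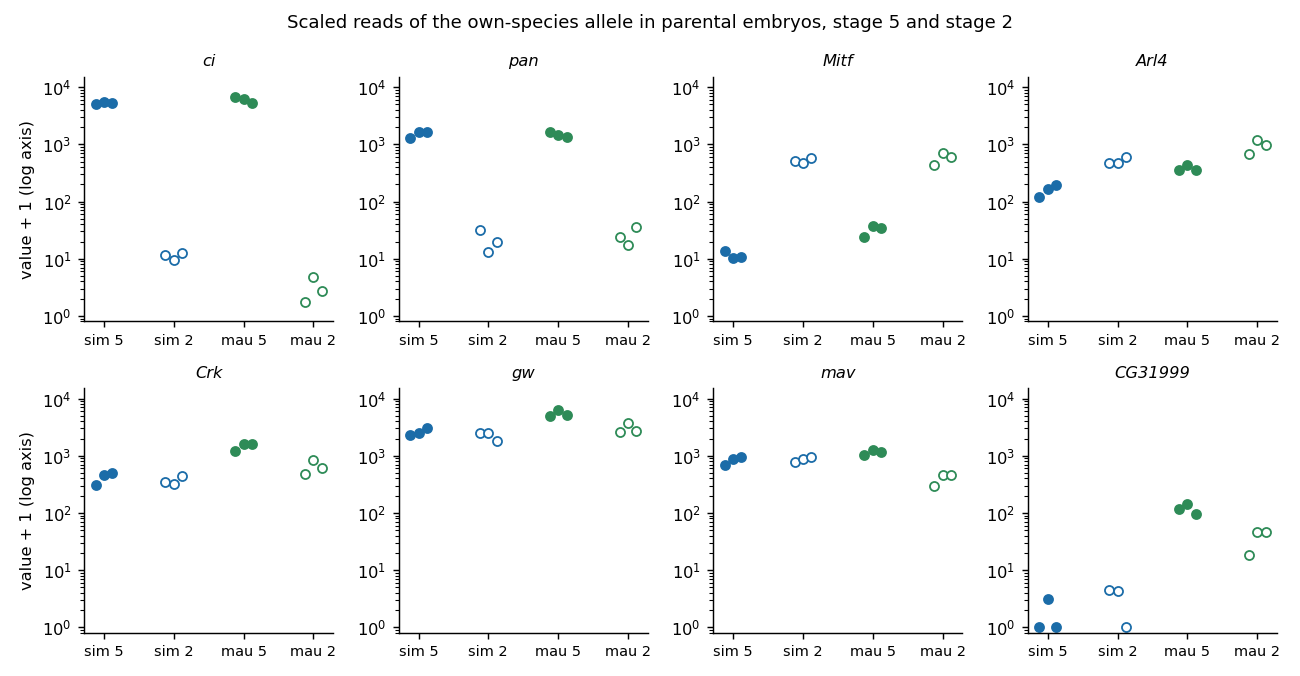
Values plus 1 on a logarithmic axis for 8 dot chromosome genes in single parental embryos of sim (blue) and mau (green), 3 embryos per group, stage 5 filled and stage 2 open. For Crk, Arl4 and gw the 3 sim embryos at stage 5 lie below the 3 mau embryos, and for CG31999, with reads mapped to sim, the sim embryos lie at 0 to 2.07 at stage 5 while the mau embryos lie at 96.3 to 139.

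Crk and CaMKII were called in 5 of the 6 species comparisons. Crk, an adaptor with SH2 and SH3 domains, had 307, 465 and 492 in sim embryos at stage 5, against 1225, 1602 and 1629 in mau embryos. The groups did not overlap, and the log2 difference was -1.83 (SE 0.22, adjusted p = 1.49e-05). At stage 2 Crk was lower in sim than in mau by -0.78 (adjusted p = 0.0125) and in sec than in mau by -1.12 (adjusted p = 0.00891). The sim call at stage 2 was lost without replicate 2 of mau (-0.56, adjusted p = 0.0725). CaMKII, a calcium and calmodulin dependent kinase gene, had 462, 448 and 421 in sim embryos at stage 5, against 884, 1020 and 1080 in mau embryos. Its log2 difference was -1.16 at stage 5 and -0.98 at stage 2 (adjusted p = 5.07e-05 and 0.000394).

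The silencing genes gw and 4E-T were lower in sim at stage 5. For gw the sim embryos had 2288, 2485 and 3020, against 5021, 6250 and 5235 in mau embryos, a log2 difference of -1.09 (adjusted p = 0.000177). Against sec it was -1.04 (adjusted p = 0.000143), and sec and mau differed by -0.19 (adjusted p = 0.444). At stage 2 none of these 3 comparisons of gw passed, with -0.41 for sim minus mau, -0.24 for sim minus sec and -0.33 for sec minus mau. For 4E-T the difference at stage 5 was -1.53 for sim minus mau and -1.19 for sim minus sec.

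A few genes were higher in sim or sec than in mau. Cals, the calsyntenin gene, had 229, 203 and 343 in sec embryos at stage 2, against 10.6, 48.9 and 5.02 in mau embryos. The groups did not overlap, and the difference was 4.06 (SE 0.54, adjusted p = 9.48e-05). At stage 5 Cals was higher in sec than in mau by 1.61 (adjusted p = 0.0287) and lower in sim than in sec by -1.93 (adjusted p = 2.14e-05). The call between sec and mau at stage 5 was lost when any embryo other than replicate 2 of sec was left out, with 1.39 to 1.68. At stage 2 mav was higher in sim than in mau by 1.11 (adjusted p = 0.000281) and in sim than in sec by 1.81 (adjusted p = 0.00508).

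Syt7, a synaptotagmin gene of vesicle fusion, turned round between stages. At stage 5 it had 0, 5.18 and 0 in sim embryos, against 28.5, 55.1 and 58.8 in mau embryos. At stage 2 it had 10.7, 21.8 and 21.5 in sim embryos, against 0, 1.53 and 0.840 in mau embryos. The difference of sim minus mau was -4.66 at stage 5 (adjusted p = 3.97e-05) and 3.44 at stage 2 (adjusted p = 0.0012), on low values throughout.

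A pair of genes, singled out after their values were seen, had few or no reads in sim and depended on the genome used for mapping. With reads mapped to sim, CG31999 had 0, 2.07 and 0 in sim embryos at stage 5, against 116, 139 and 96.3 in mau embryos, and 3.57, 3.35 and 0 at stage 2, against 17.2, 46.0 and 45.4. The difference was -6.33 at stage 5 (adjusted p = 1.82e-06) and -3.65 at stage 2 (adjusted p = 0.000523). Mapped to mau, CG31999 had 0, 1.21 and 0 in sim embryos at stage 5, against 21.5, 16.0 and 8.5 in mau embryos, a difference of -3.56 (adjusted p = 0.000171). At stage 2 it then stayed below the minimum. For yellow-h, a member of the yellow gene family, reads mapped to sim gave 0 in each sim embryo at stage 2, against 7.04, 8.43 and 17.7 in mau embryos. Mapped to mau, no reads were assigned in any embryo of either species at stage 2, so the difference was seen in 1 mapping only.

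The fourth question was whether the 2 alleles differ when a hybrid mother makes the maternal RNA. In the groups with a mau allele the allele medians lay near 0, while the species medians at stage 2 did not. Between sim and sec the species median was itself small, at -0.11. In (sim x mau) x sim embryos 10 of 37 genes were higher for the sim allele and 8 were lower by limma, against 48.2% called either way on the other autosomes. In (mau x sim) x mau embryos 8 of 37 were higher and 6 lower, against 39.2%. In (sim x sec) x sim embryos 12 of 36 were higher for the sim allele and 8 lower, against 53.8%. In (sec x mau) x sec embryos 7 of 29 were higher for the sec allele and 7 lower, against 55.4%, and in (mau x sec) x mau embryos 4 of 29 were higher and 8 lower, against 58.1%. The calls on the other autosomes leaned to the higher side. They were 1608 higher and 549 lower of 4472, 1309 and 445 of 4480, and 1730 and 701 of 4515 in the first groups named. In the groups of sec and mau they were 1579 and 721 of 4152, and 1651 and 766 of 4157. Without replicate 3 of (sim x mau) x sim 11 genes were called instead of 18, and without replicate 1 of (sec x mau) x sec 9 instead of 14. DESeq2 on the recovered reads called 7 instead of 18, 6 instead of 14, 5 instead of 14 and 5 instead of 12 in the groups of sim and mau and of sec and mau, in the order given.

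The median allele differences were 0.01, 0.05, 0.05, 0.04 and -0.03 in these 5 groups in the same order. Over genes of the other autosomes they were 0.09, 0.09, 0.10, 0.09 and 0.09. With reads mapped to the other genome of a pair, the medians of the other autosomes lay between -0.08 and -0.06, and those of the fourth chromosome genes between -0.05 and 0.01.

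Set side by side for the 36 genes tested in both, the median was 0.02 between alleles in (sim x mau) x sim embryos, against -0.63 between sim and mau parental embryos. The sim allele was the lower one in 16 of 36 genes, while sim was the lower species in 30 of 36. The parental difference was larger in size than the allele difference for 30 genes. Of the 20 genes called lower in sim than in mau, the sim allele was called lower for 6, not called for 11 and called higher for 3. In (sec x mau) x sec embryos the allele median was 0.04 over 29 genes, against -0.63 between sec and mau parental embryos. There, of 16 genes called lower in sec than in mau, the sec allele was lower for 6, not called for 9 and higher for 1. Genes chosen by a call in the parents tend to show the larger difference there. The same counts were not made for the other autosomes, so they do not show a trait of the dot chromosome.

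**Figure D4:**
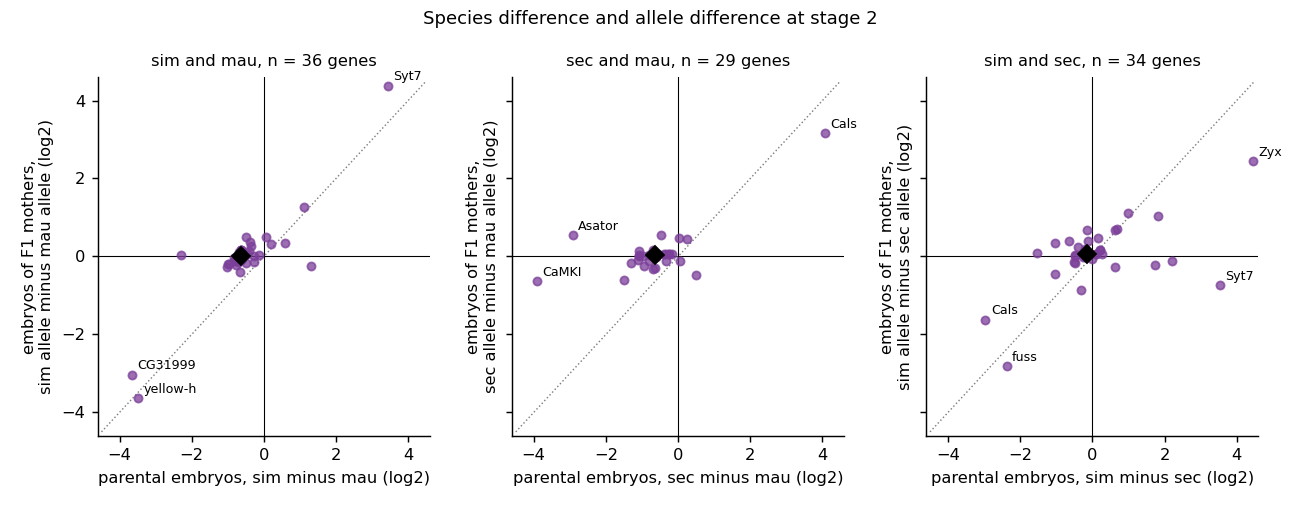
Species difference in parental embryos (horizontal axis, log2) and allele difference in embryos of F1 hybrid mothers (vertical axis, log2) at stage 2, one point per dot chromosome gene. The dotted line marks equal differences and the black diamond the medians, which lie at -0.63 and 0.02 for sim and mau, at -0.63 and 0.04 for sec and mau and at -0.14 and 0.07 for sim and sec.

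Crk is an example. It was lower in sim than in mau by -0.78 in parental embryos at stage 2, and its sim allele gave 246, 200 and 196 in (sim x mau) x sim embryos, against 275, 234 and 236 for the mau allele. The difference between alleles was -0.22, past the threshold with all 3 embryos but not without replicate 3 (-0.19, adjusted p = 0.0746), and in (mau x sim) x mau embryos it was -0.06 and did not pass. For Arl4 the parental difference was -0.84, and the allele difference was -0.05 in (sim x mau) x sim embryos and 0.03 in (mau x sim) x mau embryos, neither past the threshold.

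A minority of genes did differ between alleles as between species. For CG31999 the sim allele gave 1.47, 1.76 and 2.10 in (sim x mau) x sim embryos, against 18.6, 23.8 and 23.2 for the mau allele, and the log2 difference was -3.04. In (mau x sim) x mau embryos it was -3.13. Mapped to mau, CG31999 had 0 reads from the sim allele in all 6 embryos and 1 to 5 from the mau allele, and it was not tested. For mav the sim allele gave 425, 450 and 387 in (sim x mau) x sim embryos, against 155, 178 and 185 for the mau allele. The difference was 1.28 there and 1.41 in (mau x sim) x mau embryos, beside 1.11 between parental sim and mau. For Cals the sec allele gave 99.3, 136 and 154 in (mau x sec) x mau embryos, against 10.7, 16.0 and 17.9 for the mau allele, a difference of 3.05. For Syt7 no reads came from the mau allele in (mau x sim) x mau embryos, where the sim allele gave 9.37, 21.5 and 17.9. For yellow-h the allele difference was -3.63 in (sim x mau) x sim and -3.41 in (mau x sim) x mau embryos, with reads mapped to sim. Mapped to mau, yellow-h had 0 reads from either allele in these embryos.

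CG11077 was called in all 10 allele comparisons. At stage 2 its allele difference was 0.33 and 0.36 for sim minus mau in (sim x mau) x sim and (mau x sim) x mau embryos, 1.13 for sim minus sec, and -0.32 and -0.42 for sec minus mau in (sec x mau) x sec and (mau x sec) x mau embryos. DESeq2 did not call the differences between sim and mau or between sec and mau. Its parental differences at stage 2 were 0.21 for sim minus mau, 0.98 for sim minus sec and -0.68 for sec minus mau, and with the other genome those with sec were 0.54 and -0.58 and did not pass (adjusted p = 0.123 and 0.0702). PMCA, a calcium pump gene of the plasma membrane, was higher for the sec allele than for the mau allele by 0.48 and 0.52, and lower for the sim allele than for the sec allele by -0.44. The alleles of gw differed by 0.14 and 0.10 for sim minus mau and 0.11 for sim minus sec, small differences that passed. In (mau x sim) x mau embryos the call was lost without replicate 2 or 3 (0.11 and 0.09), and in (sim x sec) x sim embryos without replicate 1 (0.07). Mapped to mau, the differences between sim and mau were 0.06 and 0.03 and did not pass (adjusted p = 0.118 and 0.418). The main values have the sign of the medians of the other autosomes and are close to them in size.

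The allele ratio at stage 2 was compared by the direction of the grandparents' cross, between (sim x mau) x sim and (mau x sim) x mau embryos, and limma called 0 of 37 genes, with 3 at an unadjusted p under 0.05, against 0.179% of the other autosomes called. Between (sec x mau) x sec and (mau x sec) x mau embryos it called 0 of 29, with 0 at an unadjusted p under 0.05, against 0.144%. At an unadjusted p under 0.05 the other autosomes had 217 of 4474 and 325 of 4155 genes in the same order. No other tool was run on these ratios.

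At stage 5 the mother's allele was the larger one for most genes. In sim x mau embryos 35 of 43 genes were higher for the sim allele and 0 lower, against 75.8% and 4.88% on the other autosomes. In mau x sim embryos 2 of 46 were higher for the sim allele and 33 lower, against 11.1% and 62.5%. In sim x sec embryos 34 of 42 were higher for the sim allele and 0 lower, against 75.4% and 6.18%. In sec x mau embryos 30 of 39 were higher for the sec allele and 1 lower, against 76.1% and 6.28%. In mau x sec embryos 2 of 42 were higher for the sec allele and 30 lower, against 11.3% and 63.5%. The 0 lower calls in sim x mau and sim x sec stand beside 0 at an unadjusted p under 0.05, and beside 0 from edgeR and 0 from DESeq2 on the recovered reads.

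The mother's allele gave 73.2% ± 1.98 of the summed value of dot chromosome genes in sim x mau, 75.8% ± 1.42 in mau x sim, 74.7% ± 2.69 in sim x sec, 79.9% ± 2.93 in sec x mau and 77.5% ± 1.61 in mau x sec (SD, n = 6 each). For the other autosomes it gave 76.4% ± 0.998, 75.1% ± 1.18, 78.8% ± 1.22, 79.4% ± 1.32 and 77.9% ± 0.511 in the same order. The summed share was lower on the fourth chromosome in both crosses with a sim mother. The median gene had a mother's share of 73.8%, 73.8%, 69.1%, 80.2% and 73.0% among dot chromosome genes, against 67.1%, 62.9%, 67.5%, 71.1% and 65.1% on the other autosomes. Sums weight genes by their reads and medians do not.

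**Figure D5:**
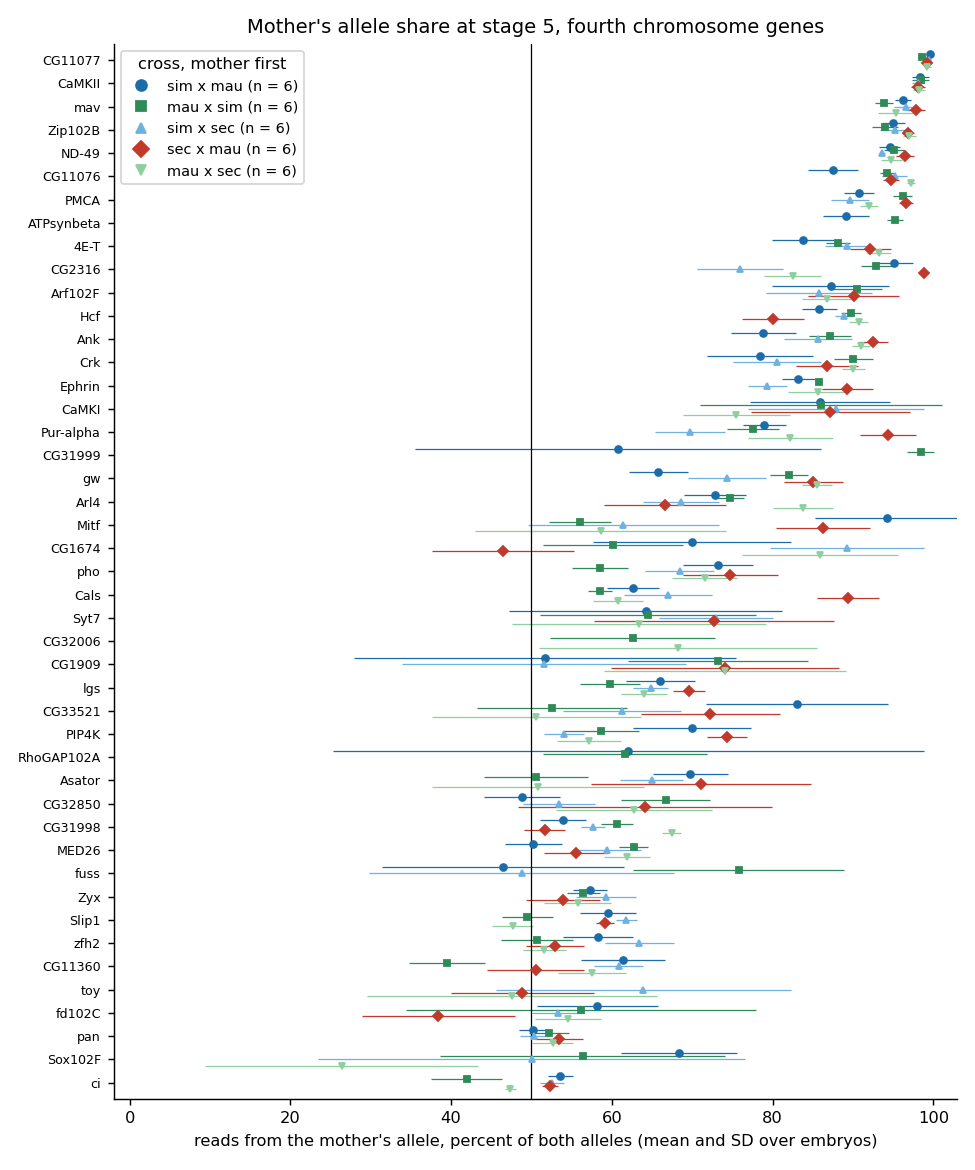
Share of reads from the mother's allele in stage 5 hybrid embryos, in percent of both alleles, for dot chromosome genes tested in at least 2 crosses. Symbols are means over 6 embryos of a cross, bars are SD, and the vertical line marks 50%. CG11077 stands above 98% in all 5 crosses, while pan stands between 50.2% and 53.4%.

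By this share the genes could be sorted. At 90% or more from the mother were 8 of 43 genes in sim x mau, 13 of 46 in mau x sim, 6 of 42 in sim x sec, 12 of 39 in sec x mau and 11 of 42 in mau x sec. On the other autosomes 17.4%, 16.4%, 18.9%, 22.5% and 18.8% of genes did so. Between 40% and 60% were 11, 14, 11, 10 and 12 of the fourth chromosome genes, or 25.6%, 30.4%, 26.2%, 25.6% and 28.6%, against 33.9%, 39.9%, 32.1%, 28.9% and 36.6% on the other autosomes. These included ci, pan, zfh2 and Zyx in most crosses, which were among the genes that rose most between stages. Genes that fell stood there too, such as MED26 in sim x mau, sim x sec and sec x mau, and Mitf in mau x sim and mau x sec. Of this class, 8 of 11, 8 of 14, 6 of 11, 8 of 10 and 9 of 12 were higher at stage 5. Over all dot chromosome genes the counts were 22 of 43, 29 of 46, 22 of 42, 27 of 39 and 27 of 42. Stage calls within a class of share were not counted on the other autosomes. Stages were compared in parental embryos of the mother's species.

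The share of ci was 53.6% ± 1.52 from the sim mother in sim x mau and 41.9% ± 4.45 from the mau mother in mau x sim (SD, n = 6 each). The sim allele of ci was thus the larger one in both directions of the cross. In sim x mau embryos it gave 50.7%, 53.9% and 54.9% of reads as the lowest, median and highest share. Its mean value was 2149 ± 432, against 1874 ± 449 for the mau allele, and the log2 difference within embryos was 0.21 (adjusted p = 0.00174). Mapped to mau it was 0.08 and did not pass (adjusted p = 0.0965). In mau x sim embryos it was 0.47 (adjusted p = 0.00357). CG11360, a gene named after its values were seen, likewise favored the sim allele over the mau allele in both directions, by 0.67 and 0.61.

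Some genes rose between stages and came almost wholly from the mother's allele. Of the genes with 90% or more from the mother, 5 of 8 in sim x mau, 9 of 13 in mau x sim, 5 of 6 in sim x sec, 9 of 12 in sec x mau and 9 of 11 in mau x sec were higher at stage 5 than at stage 2 in the parental embryos of the mother's species. Over all dot chromosome genes with a share in these crosses, 22 of 43, 29 of 46, 22 of 42, 27 of 39 and 27 of 42 were higher at stage 5, so that several of these counts lie near the share among all of them. Such counts were not made for the other autosomes, so they do not show a trait of the dot chromosome. CG11077 is an example. In sim parental embryos CG11077 had 1425, 1531 and 1269 at stage 5, against 397, 376 and 458 at stage 2, a log2 difference of 1.78 (adjusted p = 1.28e-08). In sim x mau hybrids its mother's share was 99.6% ± 0.212, with 99.3%, 99.5% and 99.9% as the lowest, median and highest. In the reverse cross the mau allele gave 98.6% ± 0.434.

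CaMKII rose by 0.88, 1.37 and 1.06 in sim, sec and mau and had a mother's share of 98.1% to 98.4% in the 5 crosses. Zip102B, a zinc transporter gene, rose by 1.54, 1.72 and 1.44 and had 94.0% to 97.0%. ND-49 rose by 1.87, 1.5 and 1.5 and had 93.6% to 96.5%. PMCA rose by 2.00, 1.66 and 1.46 and had 89.7% to 96.6%. Stage values are relative to the upper quantile of an embryo's reads, and poly(A) selection measures only RNA with a tail. The part of either in these rises was not tested.

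CG31999 differed between the directions of the cross. In mau x sim embryos at stage 5 its mother's share was 98.4% ± 1.65, and the sim allele was lower by -5.30, or by -2.79 with reads mapped to mau. In sim x mau embryos the sim allele held 60.8% of very few reads, with mean values of 5.11 for the sim allele against 2.32 for the mau allele, and the alleles did not pass (adjusted p = 0.277).

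The allele ratio was then compared between the 2 directions of a cross at stage 5. For sim and mau, 39 of 44 genes had a higher sim to mau ratio in sim x mau than in mau x sim embryos and 1 a lower one, against 76.1% of the other autosomes called either way. For sec and mau, 35 of 39 had a higher sec to mau ratio in sec x mau than in mau x sec embryos and 0 a lower one, against 75.4%. The median shift of the log2 ratio was 2.24 and 2.93, against 1.43 and 1.74 on the other autosomes. Of 38 genes tested in both pairs 33 passed in both, a count not made for the other autosomes.

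CG11077 had the greatest shift, 13.72 for sim and mau and 13.69 for sec and mau, followed by CaMKII with 11.98 and 11.48. Next were mav with 8.54 and 10.07, ND-49 with 8.40 and 8.98 and Zip102B with 8.21 and 9.89. Genes that were not called in 1 pair or the other were CG11360, fd102C, pan, RhoGAP102A, ci, toy and zfh2. The gene called lower was ci, at -0.26 for sim and mau (adjusted p = 0.0378). The 2 directions overlapped in the ratio of ci, and the call was lost when any of replicates 2, 3, 5 and 6 of sim x mau or 1, 2, 4 and 6 of mau x sim was left out, with values between -0.27 and -0.22.

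The fourth chromosome descends from an ancestral X chromosome, and XX and XY hybrid embryos were compared at stage 5. Limma called 0 of 47 genes for sim and mau, with 7 XX and 5 XY embryos and 5 genes at an unadjusted p under 0.05, against 5.24% called on the other autosomes. It called 0 of 43 for sim and sec, with 3 XX and 3 XY embryos and 9 genes at an unadjusted p under 0.05, against 0.331%. It called 0 of 43 for sec and mau, with 6 XX and 6 XY embryos and 6 genes at an unadjusted p under 0.05, against 0%. These percentages are of adjusted calls. At an unadjusted p under 0.05 the other autosomes had 1008 of 5136, 433 of 5136 and 181 of 4844 genes in the same order. Over all chromosomes limma called 716 of 6173 genes for sim and mau, 243 of 6197 for sim and sec and 0 of 5808 for sec and mau. In the last pair no gene passed at all, so its 0 does not tell the dot chromosome genes from any others. The tools edgeR and DESeq2 called 0 dot chromosome genes in each pair as well. Limma called 3 genes for sim and mau without replicate 2 of sim x mau, and 1 for sim and sec without replicate 3 of sim x sec. The median differences of XX minus XY were 0.00, -0.07 and 0.04, against -0.08, -0.08 and -0.03 on the other autosomes.

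The smallest p among these 133 tests was that of ci in sim x sec. The ci values averaged 3511 ± 104 in XX and 4432 ± 382 in XY embryos (SD, n = 3 each), and the log2 difference was -0.33 (limma adjusted p = 0.0633). In the other 2 pairs it was -0.09 and -0.21 (limma adjusted p = 0.684 and 0.908). Among transcription factor genes, toy had -1.38 for sim and mau (limma adjusted p = 0.106) on low values.

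Each gene was also placed in a regulatory category from the first species' share of reads in parental and in hybrid embryos, each with a 95% interval, set against a range of 49% to 51%. A gene is called cis when species and alleles differ alike, trans when the species differ and the alleles do not, and conserved when neither differs. Other genes show both kinds of change, acting together (cis + trans), against each other (cis x trans) or cancelling in the parents (compensatory). Over the 5 crosses at stage 2 there were 107 placements of dot chromosome genes. Of these 62 were trans, 24 cis + trans, 11 cis, 4 cis x trans, 1 compensatory and 5 conserved. The trans share was 57.9%, against 37.9% on the other autosomes, and the conserved share 4.67%, against 15.2%. With a wider range of 45% to 55% the trans share was 60.5%, against 25.5%, and the conserved share 21.8%, against 60.6%, and conserved placements numbered 27 instead of 5 and cis + trans 9 instead of 24. Pooling hides a split here too. In (sim x sec) x sim 7 of 19 placements were trans, against 28.4%, and 3 were conserved, against 21.3%. In the groups with a mau allele the trans share was 61.1% to 63.6%, against 32.3% to 48.0%, and these groups share the mau parental embryos. Intervals cover counting error only, placements of 1 gene in several crosses are not independent, and no test was made of these shares.

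MED26 was trans in all 5 crosses at stage 2. CG11077 was cis in 3 crosses, and CG31999 and Syt7 were cis in both crosses of sim and mau. At stage 5 there were 160 placements, of which 66 were cis x trans, 43 cis + trans, 19 trans, 14 cis, 12 compensatory and 6 conserved. The cis x trans share was 41.3%, against 25.6% on the other autosomes, and the compensatory share 7.5%, against 15.7%. The pooled share hides a split by cross. In sim x mau 25 of 32 placements were cis x trans, against 29.4%, and in mau x sim 1 of 35, against 22.4%. In sim x sec it was 18 of 30, against 26.6%, and in sec x mau 15 of 32, against 25.8%. In mau x sec it was 7 of 31, against 23.7%. At that stage the hybrid share holds maternal RNA, which the categories do not separate. Among genes that rose by more than 3 on the log2 scale between stages there were 31 placements: 12 trans, 9 cis x trans, 6 cis + trans, 2 cis, 1 compensatory and 1 conserved. The trans share was 38.7%, against 15.6% on the other autosomes, the cis x trans share 29.0%, against 6.78%, and the cis share 6.45%, against 27.9%. By cross, cis x trans was 4 of 5 in sim x mau, 1 of 5 in mau x sim and 2 of 6 in sim x sec. In sec x mau it was 1 of 8 and in mau x sec 1 of 7.

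Proteins that act on the fourth chromosome or its heterochromatin were followed in a list of 10 genes that lie elsewhere. At stage 5 relative to stage 2, 7 of 9 tested were higher and 1 lower in sim, 5 of 8 higher and 2 lower in sec, and 7 of 9 higher and 2 lower in mau. The methyltransferase gene egg rose by 1.89, 1.91 and 1.76 in sim, sec and mau. HP1b, of the heterochromatin protein 1 family, rose in each species, by 2.37 in sec and 2.21 in mau. Pof itself rose by 0.85 in sim and 0.67 in mau, and its difference of 0.33 in sec did not pass (adjusted p = 0.0826). G9a was lower in all 3 species, by -0.90, -1.53 and -0.85.

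Between species at stage 5, 2 of the 9 tested were higher and 4 lower in sim than in mau, 2 of 9 higher and 2 lower in sim than in sec, and 0 of 8 higher and 2 lower in sec than in mau. At stage 2, 1 of 9 was higher and 3 lower in sim than in mau, limma called 0 of 9 between sim and sec, with 0 at an unadjusted p under 0.05, and 0 of 8 were higher and 3 lower in sec than in mau. Pof was higher in sim than in mau at stage 5 by 0.52, where the dot chromosome genes had a median of -0.95. A link between the level of any listed gene and that of the dot chromosome genes was not tested. In the allele ratio between sim x mau and mau x sim embryos Pof shifted by 0.09 (adjusted p = 0.618), while egg shifted by 9.16.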

How the data were processed

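Single embryos were sequenced after poly(A) selection. Per the study's methods the authors trimmed reads with cutadapt 1.7.1, aligned them with TopHat2 2.0.13 to the genome of each species of a pair, found variant sites with GATK and counted reads carrying either allele. The deposited values are a signal per gene and allele, scaled to the upper quantile by the authors, and the number of variant sites per gene is a count that the authors deposited beside it. In all 162 combinations of embryo, pair and genome, 100% of values were whole multiples of 1 read within 0.01 reads. Main results use the sim genome for pairs with sim and the sec genome for sec and mau.

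Genes with a group mean of at least 5 in either group were tested with limma 3.58.1 (R 4.3.3) on log2(value + 1), with adjustment over all genes tested, and limma was also run on differences between alleles within embryos. Fold changes on this scale understate changes of low genes. Alternatives were edgeR 4.0.16 and DESeq2 1.42.0 on the recovered reads, pseudocounts of 0.5 and 5, no minimum or a minimum of 20, the other genome, a replicate block and leaving out each embryo. Tables and figures used Python 3.11.15, pandas 2.3.3, scipy 1.17.1 and matplotlib 3.10.9. Categories used 95% intervals of the share of reads, with a prior of 0.5 for each allele, and left out genes whose call differed between the mapping genomes. The fit was tested on simulated data with 200 changed genes.

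The genes and lists were chosen with earlier results of these data known. Named genes passed the minimum and belong to lists of roles (ligands, Hedgehog and Wnt pathway, guidance, transcription factors and chromatin, mRNA silencing, kinases and vesicles, metabolism), or were among the 5 called in the most comparisons of a family, with ties broken by mean absolute log2 difference, or were called in every comparison of a family. Others were named after their values were seen. The interaction of species and stage was added after the data had been seen. Nothing states that embryos came from separate mothers, so p-values measure the spread between these embryos.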

Additional observations from a re-analysis of the deposited data

Results flagged for a closer look

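In 4 of 100 groups of 6 hybrid embryos tested, 1 embryo lay far from the others, and chance gives about 1 in 20. For ci in sim x mau the sim allele gave 50.653% of reads in 1 embryo, while the others had 53.666% to 54.938%. For Crk in sim x mau the sim allele gave 65.753% in 1 embryo, and 78.231% to 84.773% in the others. For 4E-T in mau x sec the mau allele gave 90.355% in 1 embryo, and 92.963% to 94.355% in the others. For Crk in mau x sec it gave 87.295% in 1 embryo, and 89.905% to 90.93% in the others.

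The stage difference was called in opposite directions in species pairs for 3 genes, and the limma interaction passed for each. Syt7 differed by -8.1 between sim and mau (adjusted p = 2.57e-05) and by -6.581 between sim and sec (adjusted p = 8.95e-05). Its stage difference was -3.31 in sim, against 2.90 in sec and 4.79 in mau, on low values. Ank, an ankyrin gene that links membrane proteins to the cytoskeleton, differed by -1.985 between sim and sec (adjusted p = 3.46e-05). It had -1.28 in sim, against 0.68 in sec. CaMKI differed by -4.146 between sim and sec (adjusted p = 0.0202) and by 4.464 between sec and mau (adjusted p = 0.0174), and the sec stages overlapped.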

How the results depend on the processing

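Directions of called differences held under most settings. A change of sign was counted only where the main or the other setting passed the threshold. No such change came with edgeR, DESeq2, other pseudocounts, other minimums or the replicate block. There were 16 with reads mapped to the other genome and 2 when a species was read from its other table. CG33521 had stage differences of 3.32 in mau with the other genome, and -0.90 in sim and 3.76 in mau in the other table. CG32850 was at -1.08 for sec minus mau at stage 2 and Actbeta at 2.08 for sec minus mau at stage 5. Among stage 2 alleles with the other genome, Slip1 was at -0.30 in (sim x mau) x sim, -0.12 in (mau x sim) x mau, -0.48 in (sim x sec) x sim, -0.22 in (sec x mau) x sec and -0.29 in (mau x sec) x mau. At stage 5 it was at -0.45 in mau x sim and -0.081 in sim x sec. ATPsynbeta and CaMKI were at -0.088 and -0.25 in (mau x sim) x mau, lgs at -0.041 in (sim x sec) x sim and -0.027 in (sec x mau) x sec, and MED26 at -0.043 in (sec x mau) x sec and -0.10 in (mau x sec) x mau. The cause was not tested.

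The other genome gave 9 calls between sim and sec at stage 2, 10 at stage 5 and 1 between XX and XY in sim x sec. It moved the share of the autosomal sum to 0.801% and 0.867% in sim at stages 5 and 2, 1.17% and 1.16% in mau, 0.614% in sim x mau, 0.709% in mau x sim, 0.807% in (sim x mau) x sim, 0.832% in (mau x sim) x mau and 0.648% in (sim x sec) x sim. DESeq2 called 7 genes between alleles in (sim x mau) x sim, 6 in (mau x sim) x mau, 5 in (sec x mau) x sec and 5 in (mau x sec) x mau, and limma without a minimum called 9 in (sec x mau) x sec. Cis placements at stage 2 numbered 18 without a filter on mapping bias and 7 with a mean of at least 20, and trans placements at stage 5 numbered 12 with that mean. Cis placements of genes that rose most numbered 1 with a share range of 0.45 to 0.55, 4 without the mapping filter, 0 with a mean of at least 20 and 5 with intervals from the other genome.

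Leaving out each embryo in turn gave 31 to 35 stage calls in sim, 31 to 36 in sec and 37 to 41 in mau. Species calls ran from 16 to 30 for sim minus mau, 11 to 14 for sim minus sec and 12 to 20 for sec minus mau at stage 2, and from 28 to 35, 16 to 20 and 12 to 22 at stage 5. Allele calls at stage 2 ran from 11 to 13, 10 to 16, 17 to 20, 9 to 11 and 10 to 13 in the 5 groups, and at stage 5 from 33 to 35 in sim x mau and mau x sim, 33 to 34 in sim x sec, 30 to 33 in sec x mau and 29 to 31 in mau x sec. Calls on the ratio stayed at 0 at stage 2 and ran from 38 to 40 and 34 to 37 at stage 5. XX and XY differed in 0 to 3, 0 to 1 and 0 genes. Cis and trans placements ran from 9 to 16 and 49 to 70 at stage 2, 13 to 16 and 17 to 22 at stage 5, and 2 to 3 and 9 to 13 among genes that rose most. Shares of the autosomal sum ran from 0.637% to 0.709% and 0.666% to 0.702% in sim at stages 5 and 2, 0.845% to 1.01% and 0.739% to 0.836% in sec and 0.953% to 1.02% and 0.846% to 1.03% in mau. In hybrids at stage 5 they ran from 0.534% to 0.562% in sim x mau, 0.636% to 0.651% in mau x sim, 0.514% to 0.528% in sim x sec, 0.764% to 0.793% in sec x mau and 0.659% to 0.699% in mau x sec. At stage 2 they ran from 0.663% to 0.703%, 0.682% to 0.730%, 0.579% to 0.610%, 0.791% to 0.819% and 0.733% to 0.765% in the 5 groups of F1 mothers.

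With the replicate block limma made 35 stage calls in sim, 33 in sec and 44 in mau, and 27, 17 and 20 species calls at stage 2. The numbers were not shown to pair embryos: the deviations of 54 pairs with the same number correlated at -0.32 to 0.55, with 15 over 0.1, and 20 of 36 embryos matched their own number best. No count moved by over 1.5 times under the block. The block was not run for XX against XY: the titles number the embryos of a cross without repeats, and the sample codes of mau x sec, which number each sex 1 to 3, were not used for pairing. With 3 embryos in each parental group, 1 embryo could move a count, and the lowest genes rested on a few reads.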
